A study of Bos taurus with 32 samples.

Results

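The testicle and the hypothalamus of the same bull calves were compared by RNA sequencing, calf by calf. The members were the 16 libraries labelled testicle or hypothalamus, out of 32 libraries in the series, and they were matched by the animal number that the labels give to both tissues of a calf. All 8 calves were Holstein males carried by recipient cows and kept under similar conditions after birth. The IVP group (4 calves, 3208, 3209, 5833 and 5841) came from embryos made in vitro, and the MOET group (4 calves, 3213, 3217, 3218 and 5932) from embryos of superstimulated, artificially inseminated donor cows. Of the 8 calves, 7 were 98 to 104 days old at collection and MOET calf 3213 was 144 days old. Each calf gave 1 library per tissue, so replicates are animals, and both origins were pooled for the tissue comparison. The sources used here do not give the region of either organ that was taken.

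These organs form the top and the bottom of the gonadal axis. Neurons of the hypothalamus release gonadotropin-releasing hormone, which makes the pituitary secrete luteinizing hormone and follicle-stimulating hormone. In the testicle these act on Leydig cells, which make steroids, and on Sertoli cells, which nurse the germ cells, while testicular steroids and inhibin feed back on the brain and the pituitary. The hypothalamus consists mainly of neurons and glia. The testicle of a bull calf before puberty holds seminiferous cords with immature Sertoli cells and early germ cells. The adrenal shares steroid synthesis with the testicle, and the hypothalamus and the pituitary both hold peptide-secreting cells.

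Library totals ran from 20258880 to 22149064 counts in the testicle and from 20178727 to 22170502 in the hypothalamus. The count table gives 27607 Ensembl gene IDs without symbols, and 0 of them could be matched to a symbol. Genes are therefore described by their values, by their levels in the adrenal and pituitary of the same calves and, for 4 of them, by ID. Marker genes of the labelled tissues could not be looked up for the same reason. Each of the 16 libraries was nearer to the other libraries of its own tissue than to any of the other tissue: the lowest correlation of log2 levels within a tissue was 0.939, and the highest between tissues was 0.705. Tissue and any step of collection or library preparation done tissue by tissue cannot be told apart.

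The testicle and the hypothalamus differed in most of the genes they express. The split by direction depended on how counts were scaled. Of 16561 genes with enough counts to be tested, 13066 differed (78.9%), 6678 of them higher in the testicle (40.3%) and 6388 higher in the hypothalamus (38.6%) (edgeR's quasi-likelihood test with the calf as a block, adjusted p under 0.05). These numbers come from scaling with TMM factors. Scaled by library totals alone, 7371 genes were higher in the testicle and 5627 in the hypothalamus. A difference of more than 2-fold was shown for 6203 genes (37.5%), of which 2806 were higher in the testicle (16.9%) and 3397 in the hypothalamus (20.5%) (glmTreat, which tests for a change beyond 2-fold). At the other end, 6525 genes had a 95% confidence interval that lay within 2-fold in both directions, 39.4% of those tested, and 3536 of these passed the test for any difference. The remaining 3833 genes could be placed in neither class. In bulk tissue, a higher level may come from more cells of a type or from more RNA per cell, and these cannot be told apart.

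**Figure D1:**
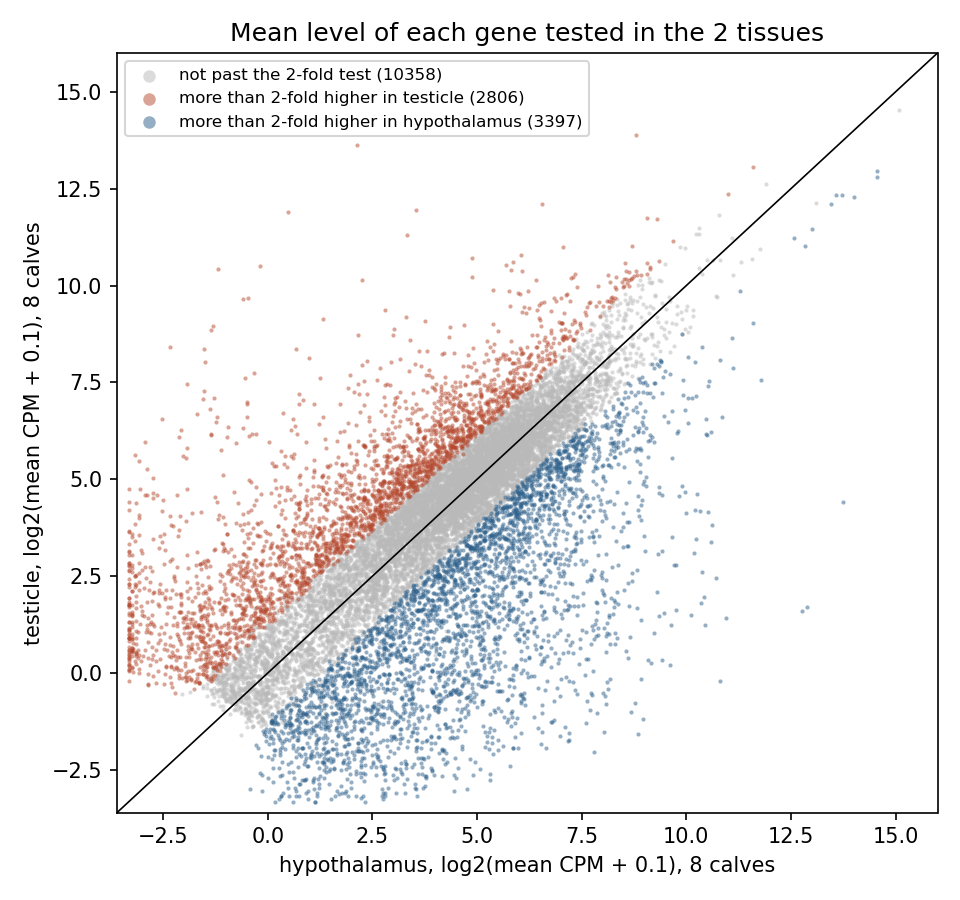
Mean level of each of the 16561 genes tested in the hypothalamus (horizontal axis) and the testicle (vertical axis), as log2 of mean CPM plus 0.1 over 8 calves. The diagonal marks equal levels, and coloured points are the 2806 genes more than 2-fold higher in the testicle and the 3397 more than 2-fold higher in the hypothalamus.

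Larger differences were more often in favour of the hypothalamus, up to a point. Among genes that passed the test, 1499 were over 8-fold higher in the hypothalamus and 882 in the testicle. Past 32-fold the counts were 622 and 324. Past 128-fold they were 189 and 171, and past 1024-fold the order turned, with 10 genes in the hypothalamus and 32 in the testicle. Without a low-count filter, 1472 genes were over 8-fold higher in the testicle and 1832 in the hypothalamus.

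How often a gene differed depended on its level. Levels are given in CPM, the counts scaled to a common library size with TMM factors, and genes were binned by their mean in the tissue where they were higher. Of 142 genes at 1000 CPM or more, 53 were more than 2-fold higher in the testicle and 51 in the hypothalamus, and 7.75% had an interval within 2-fold. In the range of 10 to 100 CPM, which holds 8809 genes, 13.8% were more than 2-fold higher in the testicle and 18.3% in the hypothalamus, and 48.4% had an interval within 2-fold. Between 1 and 10 CPM the shares were 21.8% and 22.8%, with 24.7% within 2-fold. The median standard error of the log2 fold change was 0.12 from 10 to 100 CPM and 0.23 from 1 to 10 CPM, and the median size of the difference was 0.74 and 1.22. Of the 594 genes under 1 CPM, 29.6% had an interval within 2-fold, at a median standard error of 0.28 and a median difference of 0.67.

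Single calves differed in how far the tissues lay apart. The 6203 genes were called in these same 8 calves, so their agreement between calves is a description and no support. Of the 6203 genes past the 2-fold test, 6124 had the same direction in 8 of 8 calves and 79 did not, against 65.2% of all genes tested with 8 of 8. For 5804 of the 6203, every library of one tissue lay above every library of the other. That was so for 52.1% of all genes tested. The median log2 difference over the 2806 testicle genes ran from 1.86 in calf 5833 to 2.65 in calf 3218. Over the 3397 hypothalamus genes it ran from -2.83 in calf 5841 to -2.56 in calf 3213. The older calf 3213 lay inside the range of the other calves for most genes: it had the largest or the smallest difference for 1.64% of the 6203 genes, the least of any calf, and calf 3218 for 49.6%, the most.

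The gene with the largest difference towards the testicle was ENSBTAG00000025775. Its level in the 8 testicle libraries was 7660 CPM at the lowest, 11007 at the median and 21321 at the highest. In the 8 hypothalamus libraries it was 0.402, 1.14 and 26.99 CPM. The tissues did not overlap, and the highest hypothalamus value belonged to calf 3209, whose testicle was also the highest. The log2 fold change was 12.89 (SE 0.71, glmTreat adjusted p = 8.05e-08), and summed counts per total gave a 3186-fold ratio (95% counting interval 2958 to 3437). By calf the log2 difference ran from 9.62 in calf 3209 to 14.97 in calf 5932. Adrenal libraries had 7.95 to 125 CPM of this gene and pituitary libraries 0.0898 to 0.409 CPM.

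ENSBTAG00000014335 came second and differed in where else it was read. Testicle libraries ranged from 703 through a median of 1258 to 2351 CPM, and hypothalamus libraries from 0 through 0.183 to 1.67 CPM. Again the groups did not overlap. The log2 fold change was 12.19 (SE 0.48, glmTreat adjusted p = 6.95e-09), with a ratio of summed counts of 4473 (95% counting interval 3437 to 5938). Adrenal libraries held 355 to 676 CPM, while the pituitary held 0.102 to 0.254 CPM. Scaled over all 32 libraries, the lowest testicle library was at 688 CPM, just above the highest adrenal library.

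Towards the hypothalamus, ENSBTAG00000006977 led. Its level in hypothalamus libraries was 4106 CPM at the lowest, 6716 at the median and 9802 at the highest, and in testicle libraries 0.174, 0.779 and 17.2 CPM. The highest testicle value, in calf 3217, came with the highest hypothalamus value. The log2 fold change was -12.44 (SE 0.77, glmTreat adjusted p = 2.08e-07), and the ratio of summed counts was 2027-fold in favour of the hypothalamus (95% counting interval 1864 to 2209). Both other glands were low, at 3.56 to 11.1 CPM in the adrenal and 5.03 to 15.4 CPM in the pituitary.

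ENSBTAG00000013534 followed with the same pattern over the 4 tissues. Hypothalamus libraries had 4581 CPM at the lowest, 6926 at the median and 11956.5 at the highest, against 0.566, 1.69 and 12.6 CPM in testicle libraries, without overlap. Its log2 fold change was -11.68 (SE 0.55, glmTreat adjusted p = 2.58e-08). Adrenal libraries held 2.55 to 7.32 CPM and pituitary libraries 3.58 to 13.9 CPM. The counting intervals given for these ratios cover counting error only.

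**Figure D2:**
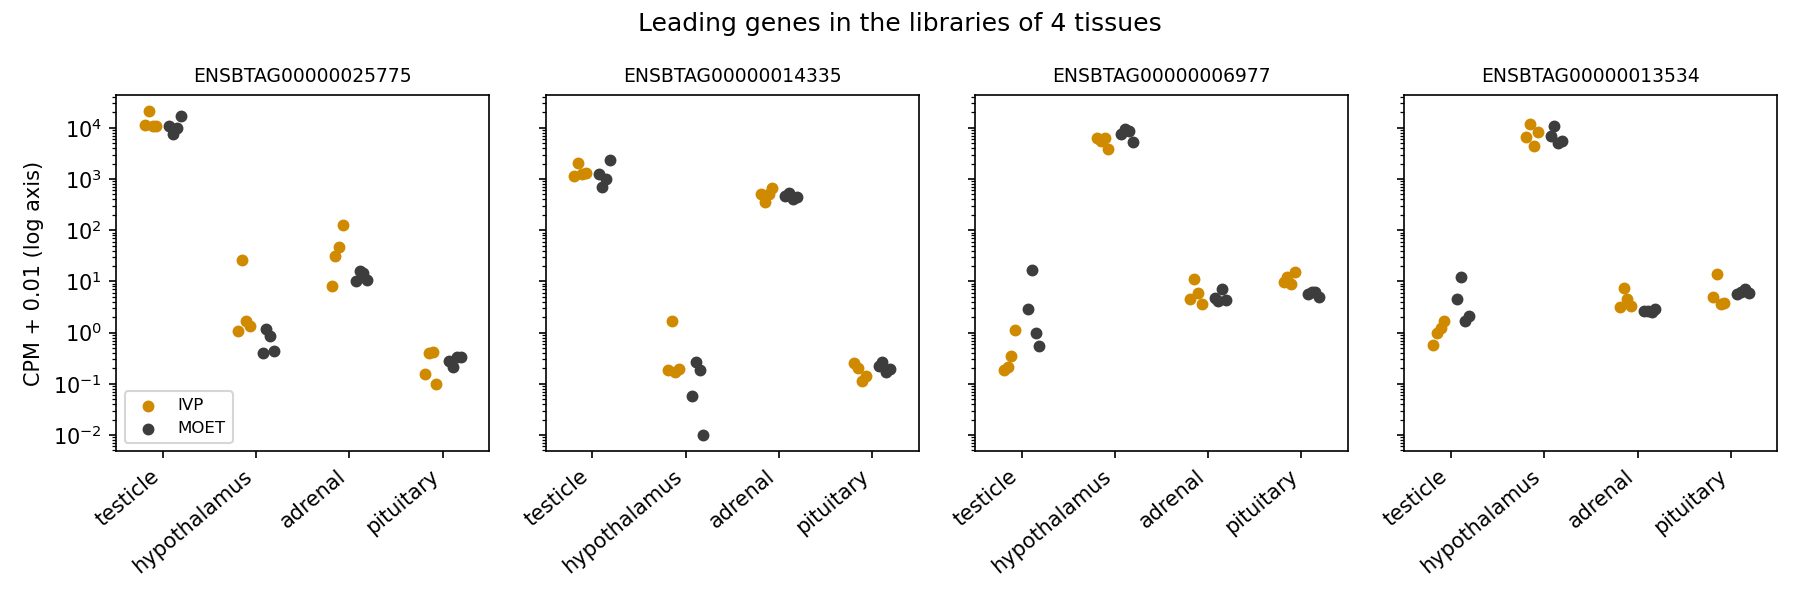
Levels of 4 leading genes in each library of 4 tissues, as CPM plus 0.01 on a log axis, scaled over all 32 libraries; each point is 1 library, coloured by embryo origin. ENSBTAG00000014335 is high in the testicle and the adrenal, and the other 3 are high in 1 tissue.

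The 10 genes with the largest differences each way were chosen by fold change and level, so their contrast between the 2 tissues is a description. Those of the testicle had mean levels of 61.9 to 12553 CPM there and 0.0310 to 4.27 CPM in the hypothalamus, with log2 fold changes of 10.52 to 12.89. They fell into separate sets by the adrenal: 3 had adrenal means of 484 to 1403 CPM, and the other 7 had 0.221 to 32.9 CPM. None had a pituitary mean above 2.35 CPM. For 8 of the 10, the 2 highest testicle libraries were those of calves 3209 and 5932. The 10 genes of the hypothalamus had means of 220 to 13661 CPM there and 0.145 to 21.2 CPM in the testicle. Of these, 1 had a pituitary mean above 100 CPM (131.5 CPM), and the other 9 had 0.208 to 24.7 CPM.

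Reads of the other tissue's leading genes were not spread evenly over libraries. Summed over the 10 testicle genes, a hypothalamus library held 0.00621% to 0.0230% of the level in the same calf's testicle in 7 calves and 0.133% in calf 3209. Of these 10 genes, 9 had their highest hypothalamus value in calf 3209. Summed over the 10 hypothalamus genes, a testicle library held 0.295% of the hypothalamus level in calf 3217, 0.117% in calf 3213 and 0.0184% to 0.0612% in the other 6. Here 9 of 10 genes peaked in calf 3217. The source of these reads was not tested. Leaving out both calves 3209 and 3217 gave 5868 of the 6203 genes past the 2-fold test in the same direction, with 0 of opposite sign. This too is a description, since the genes were called with the remaining calves included.

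Some genes were read in 1 tissue only. In the testicle, 1799 IDs had counts while all 8 hypothalamus libraries had 0, and in the hypothalamus 646 IDs while all 8 testicle libraries had 0. With at least 100 counts over the 8 libraries there were 86 testicle and 17 hypothalamus IDs. The highest of the testicle IDs had 420 to 775 counts per library, 4834 in all, which is at least 1607-fold higher than the hypothalamus on a floor of 3 counts over the group. It was also read in the adrenal, at a mean of 73.8 CPM by library total, and had 0 counts in the pituitary. The highest of the hypothalamus IDs had 797 counts in all, at least 266-fold higher, but from 0 to 595 in single libraries, and a mean of 37.4 CPM by library total in the pituitary. It was chosen as the highest of its set after its values were seen, as was the testicle ID.

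By counts, which also depend on transcript length, the 5 most counted genes of the tissues overlapped in 2. The first was the same in both, at 23696 ± 1626 CPM in testicles against 34622 ± 5045 CPM in hypothalami (SD, n = 8 each, log2 fold change -0.54, SE 0.13, edgeR adjusted p = 0.00330, glmTreat adjusted p = 1). The second of the testicle had 15236 ± 4665 CPM there against 443 ± 80.8 CPM (log2 fold change 5.07, SE 0.18), and the third was ENSBTAG00000025775. The fifth of the hypothalamus had 13661 ± 4884 CPM against 21.2 ± 30.3 CPM in the testicle. Counts were more concentrated in the hypothalamus, where the 100 most counted genes of a library held 30.03% ± 2.67 of its counts, than in the testicle with 26.2% ± 2.49 (SD, n = 8). The testicle was lower in 7 of 8 calves, with a mean difference of -3.86 percentage points (two-sided exact paired permutation p = 0.0313, adjusted p = 0.0625 over 2 measures), which does not pass after adjustment. By library total, without TMM factors, the number of genes at 1 CPM or more was 14708 ± 344 in the testicle and 14779 ± 373 in the hypothalamus. The difference had an exact paired permutation p of 0.758 (adjusted p = 0.758). At a lower bar of 5 counts the number was 17808 against 17253, higher in the testicle in 7 of 8 calves (exact paired permutation p = 0.0391).

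The adrenal and the pituitary of the same calves, which had no part in choosing the genes, were set beside these differences. A gland was counted on the high side of a gene when its mean log2 level lay above the midpoint between testicle and hypothalamus. Of the 2806 genes more than 2-fold higher in the testicle, the adrenal lay on the testicle side for 1332 (47.5%) and the pituitary for 959 (34.2%). For the 3397 hypothalamus genes the order was the other way, with the pituitary on the hypothalamus side for 1677 (49.4%) and the adrenal for 864 (25.4%). Computed in each calf, the share for testicle genes was 39.5% to 57.3% for the adrenal and 30.8% to 37.8% for the pituitary, and for hypothalamus genes 47.5% to 51.7% for the pituitary and 23.4% to 35.9% for the adrenal. Neither pair of ranges overlapped. As a mean over calves, neither gland was on the high side more often than over all genes tested. On the testicle side the adrenal share was 49.3% ± 6.89 for the 2-fold genes and 54.995% ± 6.80 for all genes, and the pituitary share 34.5% ± 2.702 and 48.96% ± 1.34 (SD, n = 8 calves). On the hypothalamus side the pituitary share was 49.2% ± 1.23 and 49.4% ± 1.87, and the adrenal share 27.3% ± 3.95 and 41.8% ± 3.17. Scaled by library totals alone, the pituitary share of testicle genes was 29.0%, against 41.9% for all genes. For hypothalamus genes the pituitary share was then 45.0%, above the 42.8% for all genes. Under both scalings the glands differed mainly by the lower share of the pituitary among testicle genes and of the adrenal among hypothalamus genes. For testicle genes the adrenal share was 43.5% in IVP and 54.8% in MOET calves; this difference was not tested.

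**Figure D3:**
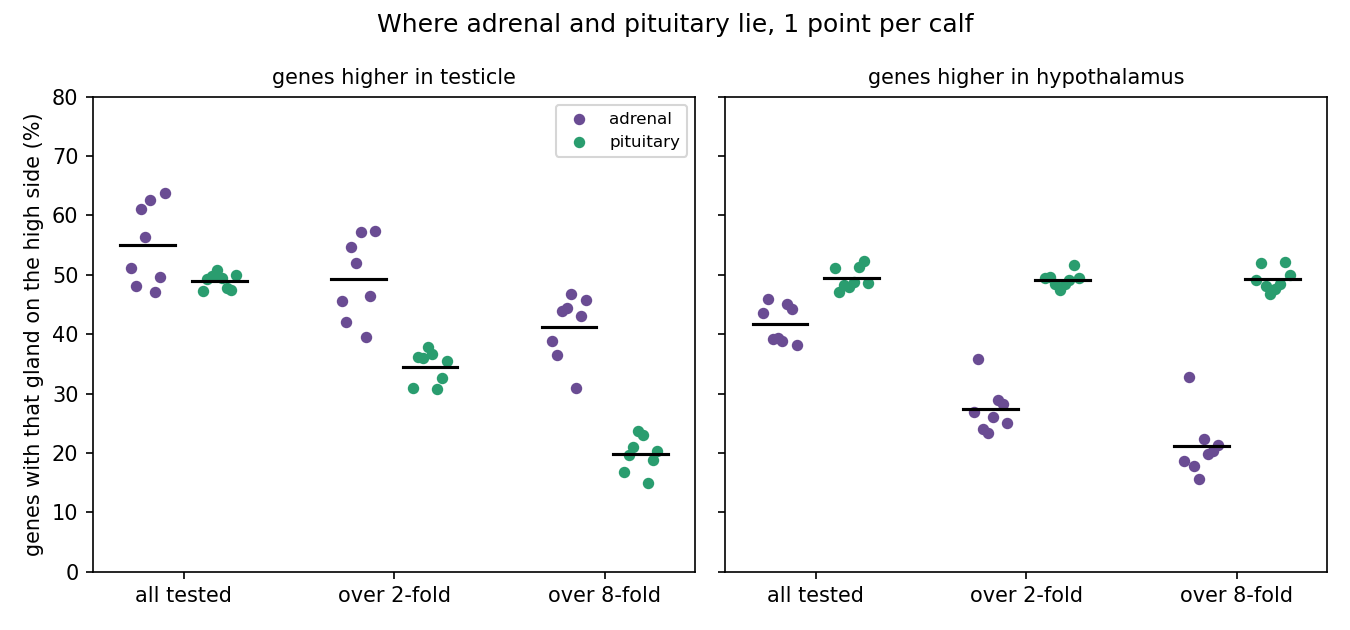
Share of genes for which the adrenal (purple) or the pituitary (green) lay on the high side, with 1 point per calf and a bar at the mean of 8 calves. For genes over 2-fold and over 8-fold higher in the testicle the adrenal points lie above the pituitary points, and for those higher in the hypothalamus they lie below.

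The gap between the glands was wider among genes with larger differences. Of 882 genes over 8-fold higher in the testicle, the adrenal was on the high side for 352 (39.9%) and the pituitary for 159 (18.03%). Both shares were lower than for the 2-fold genes (47.5% and 34.2%) and for all testicle-side genes tested (53.1% and 49.02%). Of 1499 over 8-fold higher in the hypothalamus, the pituitary was on the high side for 734 (48.97%) and the adrenal for 291 (19.4%). This pituitary share was near that of the 2-fold genes (49.4%) and of all hypothalamus-side genes tested (49.02%). The adrenal share was lower than for the 2-fold genes (25.4%) and for all hypothalamus-side genes tested (41.4%). Genes that neither gland joined made up 1061 of the 2806 testicle genes, and 456 of these were over 8-fold higher. The 546 testicle genes joined by both glands had smaller differences, with a median log2 fold change of 1.82 and 85 over 8-fold. Among hypothalamus genes, 1386 were joined by neither gland (681 over 8-fold), 1147 by the pituitary alone (527), 334 by the adrenal alone (84) and 530 by both (207). Genes at least 8-fold above each of the 3 other tissues numbered 288 in the testicle and 450 in the hypothalamus.

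The share of counts in these genes is given as a description, since they were chosen for being higher in 1 of the tissues. The 2806 testicle genes took 32.2% ± 1.20 of testicle counts (30.1% to 34.2%) and 5.92% ± 0.587 of hypothalamus counts (SD, n = 8). The 3397 hypothalamus genes took 42.5% ± 2.06 of hypothalamus counts (39.2% to 45.2%) and 9.14% ± 0.300 of testicle counts. In the pituitary they took 44.9% ± 3.56 of counts (39.7% to 50.9%), and in the adrenal 18.02% ± 1.34. In the testicle, genes joined by neither gland took 14.0% ± 0.436 and those joined by the adrenal alone 9.22% ± 0.744. The 786 genes joined by the adrenal alone took 8.19% ± 0.247 of adrenal counts as well, against 1.51% ± 0.176 in the hypothalamus. In the hypothalamus, genes joined by neither gland took 17.7% ± 0.894. The 1147 genes joined by the pituitary alone took 8.39% ± 0.504 there and 36.4% ± 4.22 of pituitary counts. Their mean log2 CPM was nonetheless lower in the pituitary, at 4.10, than in the hypothalamus, at 4.44, so the larger summed share does not describe the typical gene of the class. The 334 joined by the adrenal alone took 13.4% ± 2.04 in the hypothalamus, 11.5% ± 1.13 in the adrenal and 4.91% ± 0.385 in the testicle.

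**Figure D4:**
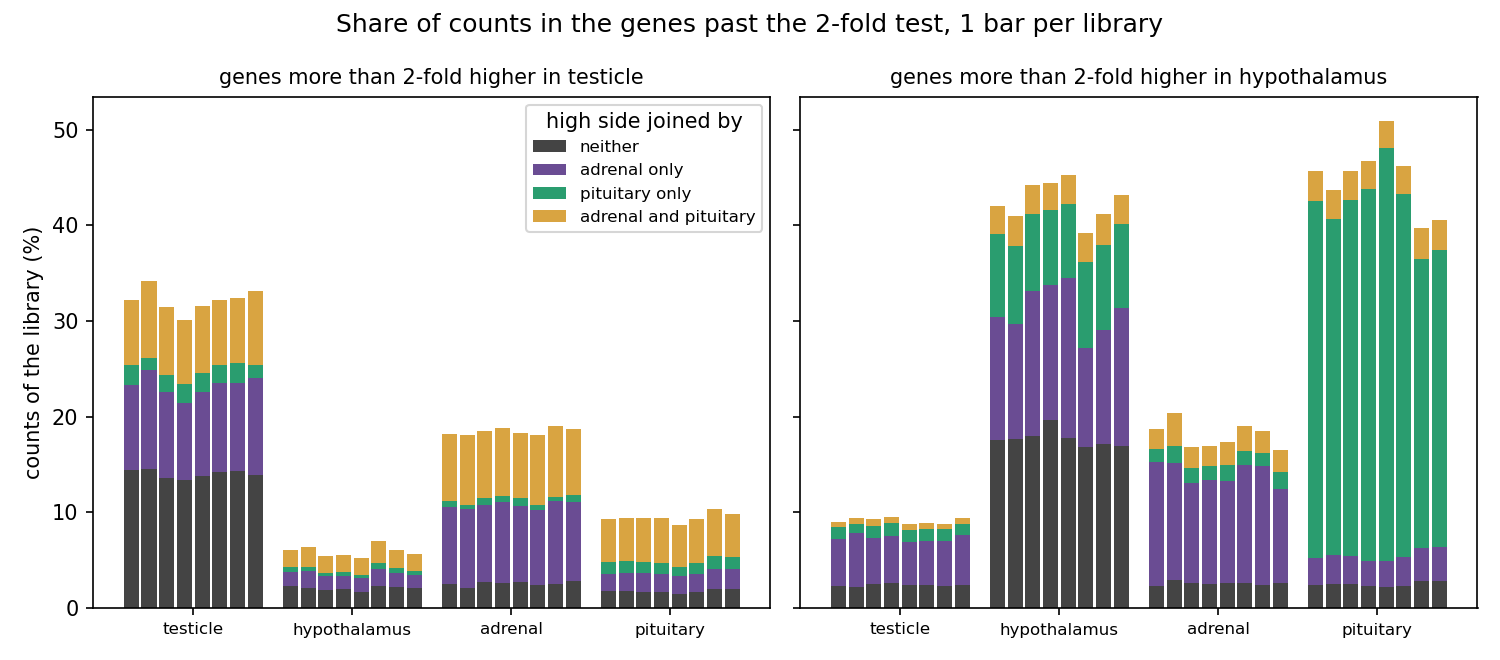
Share of each library's counts in the genes more than 2-fold higher in the testicle (left panel) or the hypothalamus (right panel), with 1 bar per library, grouped by tissue and stacked by which gland joined the high side. Genes joined by the pituitary alone fill most of the pituitary bars in the right panel.

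Testicle libraries of calves 3209 and 5932 stood apart in these classes. The 413 testicle genes joined by the pituitary alone took 1.24% and 1.31% of counts in those testicles and 1.75% to 2.09% in the other 6. Their mean log2 CPM was 3.39 and 3.52 there, against 3.91 to 4.22. In no other class of testicle or hypothalamus genes did the mean log2 CPM vary as much between libraries of its own tissue (SD 0.32, against 0.03 to 0.15). The same testicles held the highest levels of ENSBTAG00000025775, at 21321 CPM in calf 3209 and 17376 CPM in calf 5932, against 7660 to 11398 CPM in the other 6, and the largest shares in the 100 most counted genes, 31.0% and 29.0% against 23.8% to 25.6%. Without both calves, 5932 of the 6203 genes passed the 2-fold test in the same direction.

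Whether the difference between the tissues depended on embryo origin was tested on the paired differences, IVP against MOET, with 4 calves each. Of the genes tested, 1 of 16561 genes passed (0.00604%; edgeR's quasi-likelihood test, adjusted p = 0.0222). This gene was higher in the hypothalamus in both origins, and the gap was wider in IVP calves. Its level in the hypothalamus was 23.7, 40.5, 42.6 and 74.3 CPM in IVP calves 3208, 3209, 5833 and 5841, and 19.1, 15.02, 21.1 and 25.1 CPM in MOET calves 3213, 3217, 3218 and 5932. In the testicle it was 0.958, 1.77, 1.63 and 2.44 CPM in IVP and 2.60, 1.94, 3.09 and 3.25 CPM in MOET calves, in the same order. Levels of the origins overlapped in each tissue, but the difference within a calf did not: it was -4.88 to -4.45 on the log2 scale in IVP and -2.91 to -2.73 in MOET calves. The fitted difference was -1.81 (SE 0.16). The pituitary held 91.3 CPM of this gene on average, above every hypothalamus library.

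The single call is not stable. It was lost on leaving out any 1 of calves 3208, 3209, 3213, 3217, 3218 and 5833 (edgeR adjusted p from 0.0705 to 0.270), and also in limma voom (adjusted p = 0.0795) and in edgeR without the calf as a block (adjusted p = 0.117), while the difference stayed between -2.07 and -1.73. Without MOET calf 5932, 3477 genes passed, 1613 with a higher and 1864 with a lower paired difference in IVP calves. Without both 3209 and 5932, 4 passed. DESeq2 called 284 genes, and the fit without the calf block called 22. Before adjustment 2123 genes had a p under 0.05, 12.8% of those tested, 748 higher and 1375 lower in IVP. The median size of the origin term was 0.30 on the log2 scale, and its median standard error was 0.27.

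**Figure D5:**
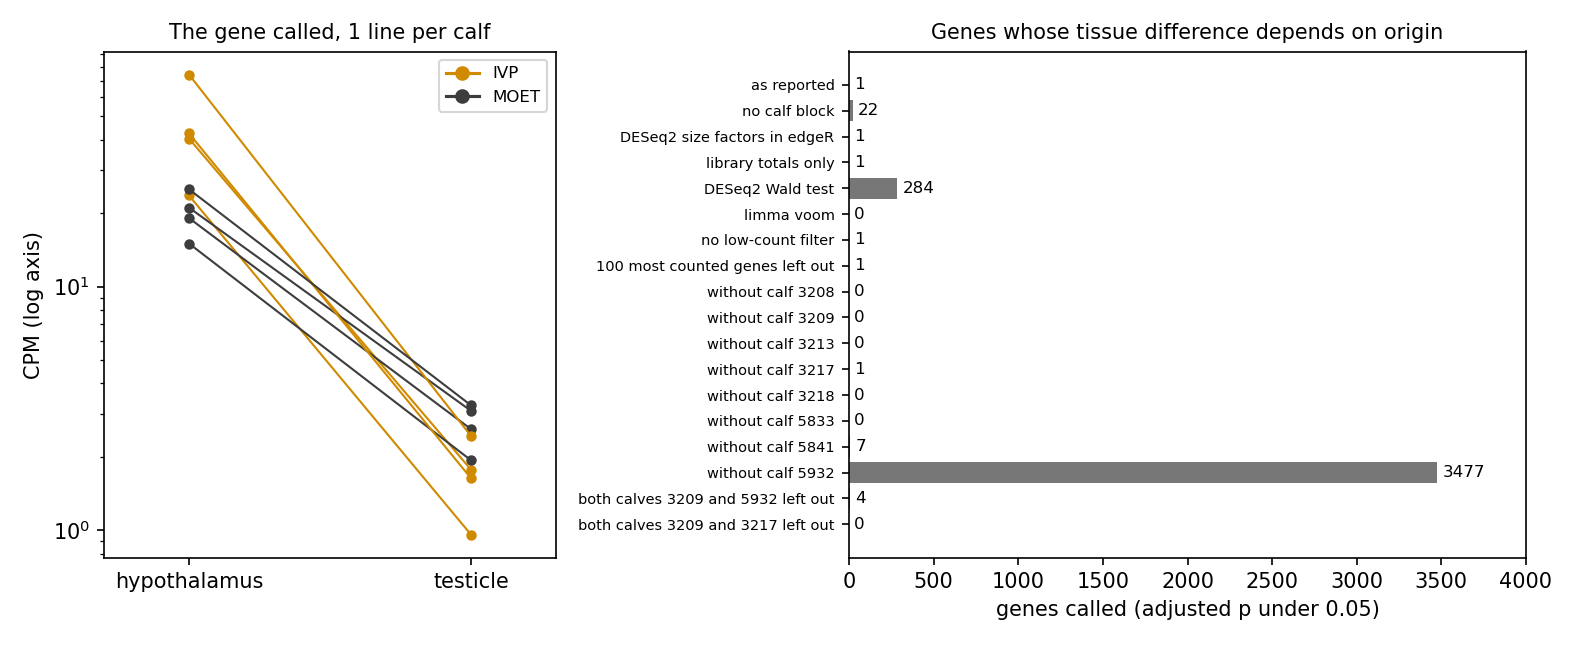
Left, the gene called for a tissue difference that depends on origin, in CPM on a log axis, with 1 line per calf joining its hypothalamus and testicle. Right, the number of genes called for such a difference under each setting: 3477 without calf 5932, 284 in DESeq2 and at most 22 in the others.

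The tissue comparison was also made in each origin alone. Of the 6203 genes, 5714 passed the 2-fold test in the same direction in the 4 IVP calves and 5349 in the 4 MOET calves, which is a description, since the genes were called in the same 8 calves. Across the 16561 genes, which are not independent replicates, the mean differences of the origins had a Pearson correlation of 0.967. Their median gap was 0.30 on the log2 scale, against a median difference between the tissues of 0.90.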

How the data were processed

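Poly(A)-selected RNA of 4 tissues was sequenced with paired-end reads of 100 bases in libraries that do not keep strand, from RNA of integrity number above 7 and with SOAPnuke read filtering, per the labels' protocols. The submitters' processing notes name STAR 2.7, HTSeq and the bosTau9 build; the sources used here do not give the annotation or how reads were counted. The authors deposited raw counts per gene for 27607 IDs, with 0 entries that name no gene. Reads of overlapping genes on opposite strands, or of near-identical genes, may be misassigned.

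Groups came from the labels. The members, lists and tests were chosen with earlier results of these data known. Genes passing filterByExpr on tissue (minimum count 10, minimum total 15; 99.9% of counts) were scaled by TMM and fitted in edgeR 4.0.16 (R 4.3.3) with robust quasi-likelihood and the calf as a block. Tests were glmQLFTest, glmTreat against 2-fold, and the interaction with origin, with Benjamini-Hochberg adjustment over all genes at 0.05. SE is the log2 fold change over the root of F. Log2 levels used a prior count of 2. Single values used two-sided exact sign-flip tests over 8 calves, whose smallest p is 0.00781.

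The genes named are those with the largest fold change past the 2-fold test, in the same direction in 8 of 8 calves and at 50 CPM or more in the higher tissue. As 0 IDs matched a symbol, 28 planned gene lists were not run and at most 2 IDs per direction are named; levels in the adrenal and pituitary took their place. The pairing comes from the labels, which give both libraries of a calf 1 animal number. Deviations of same-calf libraries from their group means correlated at -0.55 to 0.72 across genes, at 0.11 or more in 5 of 8 calves. No pair of libraries was identical (24 pairs, chi-square per degree of freedom 6.91 to 119). In the smallest library, 3 counts stand for 0.149 CPM.

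On simulated counts, 74 of 100 tissue changes of 2-fold were found and 100 of 100 of 4-fold (4 false calls in 16466 genes). For origin, 20 of 100 and 68 of 100 were found (5 false calls in 16364). Whether these rates carry over to the real libraries was not tested. In the real counts 13066 genes differed between the tissues, and calls for origin ran from 0 to 3477 with 1 calf left out. Alternatives used DESeq2 1.42.0, limma 3.58.1, other scalings and filters, each origin alone, and calves left out. Figures used matplotlib 3.10.9.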

Additional observations from a re-analysis of the deposited data

Results flagged for a closer look

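Of 34 sets of library values examined, 8 had a library far from the rest. The rule flags about 1 in 20 sets by chance only where sets are independent and values are normally distributed. These sets share genes and libraries, and low CPM values are skewed, so the 8 cannot be set against that rate. The testicle of calf 3209 had 13968 genes at 1 CPM or more by library total, against 14619 to 15071 in the other 7. In its hypothalamus, ENSBTAG00000025775 was at 26.99 CPM, against 0.402 to 1.80 CPM, and ENSBTAG00000014335 at 1.67 CPM, against 0 to 0.256 CPM. The summed level of the 10 leading testicle genes there was 0.133% of that in the calf's testicle, against 0.00621% to 0.0230%.

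In the testicle of calf 3217, ENSBTAG00000006977 was at 17.2 CPM, against 0.174 to 2.98 CPM, and ENSBTAG00000013534 at 12.6 CPM, against 0.566 to 4.51 CPM. The 10 leading hypothalamus genes summed to 0.295% of that calf's hypothalamus level, against 0.0184% to 0.117%. Its hypothalamus gave 19.6% of counts to genes that neither gland joined, against 16.8% to 17.997%.

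For 1 gene the difference between tissues passed the test of dependence on origin. Its log2 difference of testicle over hypothalamus was lower in IVP than in MOET calves by a fitted term of -1.81. This call is not stable, as it was lost in most runs with 1 calf left out.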

How the results depend on the processing

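Counts of genes that differ, and that differ by more than 2-fold, stayed within 1.5 times the reported ones under each alternative run, from 10982 to 14916 and from 5586 to 7430. Where they were tested, 0 of the 6203 genes changed sign. That is a description and no support, since they were called in these same libraries. Without the calf as a block (no pairing), 6130 of these 6203 passed in the same direction; the calf block changed no call of a tissue difference among the 4 named genes. With no low-count filter, 1472 rather than 882 genes were over 8-fold higher in the testicle, with 24506 tested. Scaling by library totals moved the median log2 fold change from 0.04 to 0.20 and the testicle's share of genes past the 2-fold test from 45.2% to 50.4%. The count of genes whose tissue difference depends on origin was 22 without the calf block, 284 in DESeq2, 0 in limma voom (2198 at an unadjusted p under 0.05), 0 to 3477 with 1 calf left out, 4 without 3209 and 5932, and 0 without 3209 and 3217; the cause was not tested. Genes detected per library, testicle minus hypothalamus, went from -71.4 to 555 at 5 counts. At these library totals a bar of 0.2 CPM by library total is the same as 5 counts, so it is no separate check. With 1 calf left out the difference ran from -210 to 30.9, turning positive without calf 3209 (exact paired permutation p = 0.844). The difference in the share of the 100 most counted genes was -4.70 to -2.996 percentage points with 1 calf left out, -1.06 over 1000 genes (exact paired permutation p = 0.508) and -5.78 over 20 genes (exact paired permutation p = 0.00781, the smallest possible). The 4 named genes kept their call in each alternative that tested them (with the 100 most counted genes left out, ENSBTAG00000014335 alone was tested), with log2 fold changes of 11.85 to 13.91 (ENSBTAG00000025775), 11.50 to 13.27 (ENSBTAG00000014335), -13.57 to -11.55 (ENSBTAG00000006977) and -12.74 to -10.78 (ENSBTAG00000013534). The lowest values came from IVP calves alone. The highest came from MOET calves alone or, for ENSBTAG00000014335, from leaving out both calves 3209 and 3217. None of the 4 genes passed the test of dependence on origin after adjustment. Low counts in the other tissue limit their precision.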

Other observations

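A few genes differed between calves in the same way in both tissues. In a test of the calf term across the 2 tissues, added after the data were seen, 8 of 16561 genes passed (edgeR's quasi-likelihood test, adjusted p from 0.00191 to 0.0372). An unadjusted p under 0.05 was reached by 842 genes, about as many as that cut passes by chance. For 1 of the 8, the calves split by origin: testicles had 34.4 to 59.6 CPM and hypothalami 29.9 to 59.8 CPM in IVP calves, and at most 0.651 and 0.101 CPM in MOET calves. For the other 7 the origins overlapped in at least 1 of the tissues. The first by p was at 22.3 and 11.3 CPM in the testicles of calves 3209 and 3217 and at 26.1 and 24.7 CPM in their hypothalami, while the other 6 calves had 1.66 to 3.45 CPM and 2.02 to 6.44 CPM. Another reached at most 0.0426 CPM in testicles and 0.243 CPM in hypothalami of calves 3213, 3218 and 5833, and at 1.93 CPM or more in both tissues of the other 5.

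Libraries of 1 group also varied together over many genes. After removal of the origin means, 71.4% of the variance between testicles lay on the first principal component and 46.8% of that between hypothalami. Each tissue has its own first component, built on its own gene weights, and the sign of a component is arbitrary. Scores can therefore be compared between calves of a tissue, but not between the tissues. Calf 3209 had the score of largest size in each tissue, 0.70 in the testicle and 0.59 in the hypothalamus. Calf 5932 scored 0.47 in the testicle and -0.48 in the hypothalamus, and calf 3218 scored -0.24 and 0.54. Whether a calf shifted the same way in both tissues cannot be read from these scores. The median SD between calves was 0.29 on the log2 scale in the testicle and 0.26 in the hypothalamus. Over 8523 genes at 10 CPM or more in both tissues, 67.7% had the larger SD in the testicle.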
